A study of Homo sapiens with 46 samples.

Results

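RNA left on chromatin was compared with RNA released into the nucleoplasm in undifferentiated human pluripotent stem cells (hPSC). The cells were of the H1 line, an established human embryonic stem cell line, kept on Matrigel in mTeSR1 medium. The comparison was defined by the sample labels and not by measured values: it holds the 3 hPSC chromatin and 3 hPSC nucleoplasm libraries, 6 of the 46 libraries of the series. Counts were summed over all transcripts of an Ensembl gene, which gave 15115 genes, of which 13987 passed the filter on low counts. The other libraries of the series came from nucleus and cytoplasm of these cells, or from germ layer cells (ectoderm, endoderm, mesoderm) that were derived from the line. Per the labels, cells were opened with a mild detergent and the nuclei were spun through sucrose. Nuclei were then broken with NP-40, salt and urea. The supernatant was taken as nucleoplasm, the pellet as chromatin, and a portion of the nuclear pellet as nucleus. The buffers of all fractions held α-amanitin, an inhibitor of RNA polymerase II. All groups are the same H1 line. No label names an agent for the hPSC, although the series text speaks of actinomycin D. Ectoderm cells were made with A83-01, PNU-74654 and dorsomorphin, and endoderm cells with WNT3A and Activin A. The labels do not say whether repeats came from separate cultures, so p-values measure the spread between these libraries, which may be technical. Pellets and supernatants were extracted as separate kinds of sample, so fraction and extraction cannot be told apart.

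RNA polymerase II makes transcripts on the DNA template, and a transcript stays tied to chromatin until it is cleaved, spliced and let go. Unspliced and noncoding RNAs are therefore commonly found in the chromatin pellet, while finished mRNAs on their way to the pores are commonly found in the soluble nucleoplasm. Membranes that stay with isolated nuclei, such as the endoplasmic reticulum around them, can bring other RNAs into a nuclear fraction. Levels below are in CPM, counts scaled to the library's total in Ensembl genes. A level is a share of its library, so more of a gene on chromatin and less of everything else there cannot be told apart, nor can fewer nuclei and less RNA per nucleus. A log2 change is chromatin minus nucleoplasm, with TMM scaling of the libraries, and a gene is called at an adjusted p under 0.05.

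The 6 libraries held 12549571 to 15798639 counts each. The cells expressed markers of their labelled identity. POU5F1, a core pluripotency factor, ranged from 1115 to 1380 CPM and LIN28A from 1801 to 2064 CPM. SOX17, FOXA2, GATA4, GATA6, CXCR4, TBXT, MESP1, HAND1, PAX6, SOX1, ZIC1 and LHX2, markers of the germ layers, had no row in the table, and TBX6 was at 2.91 to 7.27 CPM. The table is of an assembly made for hPSC, so a missing row is not a measured low level. KDR, a mesoderm marker also seen in hPSC, was at 193 to 290.1 CPM.

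Chromatin replicate 3 stood apart from the other 5 libraries. Its Pearson correlation with chromatin replicates 1 and 2, across genes on log2(CPM + 1), was 0.959 and 0.963, against 0.994 between those replicates and 0.990 to 0.993 among the nucleoplasm libraries. With the 3 nucleus libraries it was 0.960 to 0.963. Its counts differed from those of the other chromatin libraries by a chi-squared per degree of freedom of 53.3 and 63.1, against 5.05 between chromatin replicates 1 and 2 and 6.21 to 15.3 among the nucleoplasm libraries. The difference ran along base composition. In chromatin replicate 3 the highest of 5 equal groups of genes by GC content stood 1.59 log2 units above the lowest, relative to nucleoplasm; in chromatin replicates 1 and 2 the gap was 0.50 and 0.57, and in the nucleus libraries 1.26 to 1.38. Gene and list results below are therefore given with and without this library, and for many also after a GC correction (a smooth offset for GC content in each library). The part of base composition in each result was not otherwise tested.

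**Figure D1:**
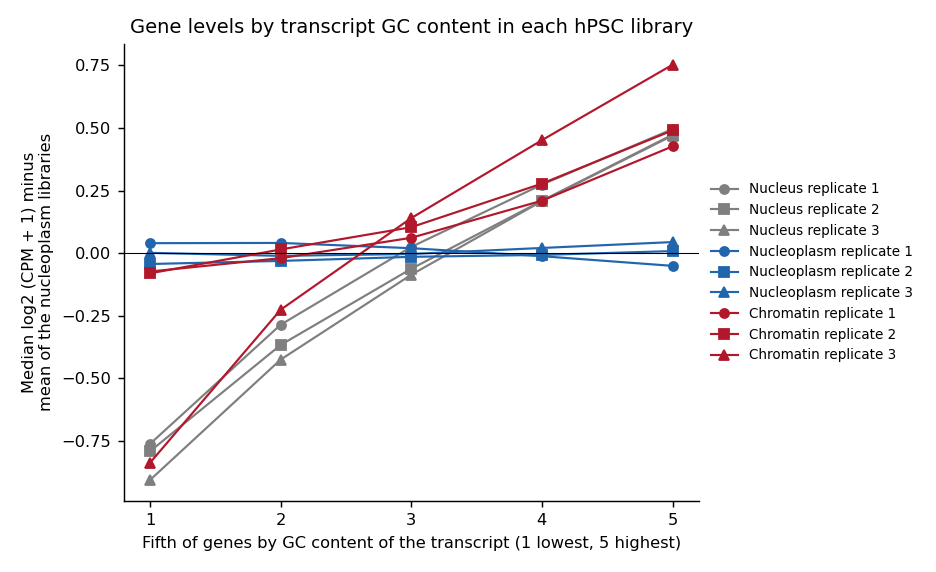
Gene levels by GC content of the transcript in 9 hPSC libraries. The x axis gives 5 equal groups of 11213 genes by GC content and the y axis the median of log2(CPM + 1) minus the mean of the 3 nucleoplasm libraries; each line is 1 library. Chromatin replicate 3 rises by 1.59 from the lowest to the highest group, the other chromatin libraries by 0.50 and 0.57, and the nucleoplasm libraries by -0.09 to 0.05.

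The genes with the largest rises and falls differ in base composition. Whole transcripts hold 66.7% GC for B4GALNT4, 65.0% for KLHL17 and 64.8% for COL7A1, against 34.2% for KIF20B and 35.3% for CENPE. None of these genes had counts in a listed transcript, so the values are of each gene's longest GENCODE transcript. The assembled isoforms that were counted may differ in GC content. Short coding stretches of the GENCODE transcripts illustrate the split, and single stretches can be more extreme than the transcript. Stretches of 120 bases from GENCODE release 29 (GRCh38) follow for 3 genes that were higher in chromatin and rich in G and C, written 5′ to 3′ with G and C in capitals. They are from B4GALNT4 exon 14 (chr11:376815-376934, plus strand, 85% GC), KLHL17 exon 2 (chr1:961363-961482, plus strand, 68.3% GC) and COL7A1 exon 73 (chr3:48575379-48575498, minus strand, 74.2% GC).
B4GALNT4: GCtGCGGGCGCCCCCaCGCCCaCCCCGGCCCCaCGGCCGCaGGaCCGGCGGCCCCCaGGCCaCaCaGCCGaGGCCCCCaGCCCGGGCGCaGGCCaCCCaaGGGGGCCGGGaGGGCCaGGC
KLHL17: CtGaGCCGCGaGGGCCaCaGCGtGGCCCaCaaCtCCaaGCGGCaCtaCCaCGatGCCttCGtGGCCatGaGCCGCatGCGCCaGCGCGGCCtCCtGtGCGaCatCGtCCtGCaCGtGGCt
COL7A1: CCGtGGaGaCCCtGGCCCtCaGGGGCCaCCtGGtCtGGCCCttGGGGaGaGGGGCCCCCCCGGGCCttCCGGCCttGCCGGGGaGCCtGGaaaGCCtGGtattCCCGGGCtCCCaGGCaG

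Genes that were lower in chromatin and poor in G and C are shown in the same way, and a and t prevail in their stretches. The stretches are from KIF20B exon 20 (chr10:89737943-89738062, plus strand, 35.0% GC) and CENPE exon 22 (chr4:103159107-103159226, minus strand, 32.5% GC).
KIF20B: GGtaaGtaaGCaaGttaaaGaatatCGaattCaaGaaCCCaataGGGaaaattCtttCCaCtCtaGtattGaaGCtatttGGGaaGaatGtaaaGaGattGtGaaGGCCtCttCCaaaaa
CENPE: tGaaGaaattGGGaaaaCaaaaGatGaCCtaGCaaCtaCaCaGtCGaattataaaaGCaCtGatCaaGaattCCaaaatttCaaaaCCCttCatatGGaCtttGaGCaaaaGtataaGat

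Some genes went against that split. PRR11 and CCNG1 were higher in chromatin although their whole transcripts hold 45.3% and 38.2% GC, and RN7SL1 was far lower although it holds 62.9%. The stretches are PRR11 exon 5 (chr17:59193554-59193673, plus strand, 59.2% GC in this stretch) and CCNG1 exon 2 (chr5:163439329-163439448, plus strand, 41.7% GC).
PRR11: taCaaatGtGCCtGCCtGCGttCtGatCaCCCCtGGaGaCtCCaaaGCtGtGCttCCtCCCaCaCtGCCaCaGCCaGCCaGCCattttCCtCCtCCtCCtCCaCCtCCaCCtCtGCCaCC
CCNG1: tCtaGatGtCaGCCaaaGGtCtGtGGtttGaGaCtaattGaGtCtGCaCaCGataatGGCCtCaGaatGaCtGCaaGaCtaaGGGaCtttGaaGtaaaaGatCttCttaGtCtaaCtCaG

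Of the 13987 genes tested with edgeR's quasi-likelihood test, 2399 were higher in chromatin (17.2%) and 1896 lower (13.6%), 30.7% in all. Without chromatin replicate 3, 1980 of 14111 were higher (14.0%) and 1580 lower (11.2%), and 1824 and 1460 of these were also called with all libraries. With the GC correction and without that library, 1523 of 13840 genes were higher (11.0%) and 1096 lower (7.92%). Called in all 4 fits, with and without the library and with and without the correction, were 1074 genes in the higher direction, 44.8% of the higher calls, and 711 in the lower, 37.5% of the lower calls. Without regard to a test, the chromatin libraries all lay above the nucleoplasm libraries in 5118 genes (36.6%) and all below in 2358 (16.9%). The split of calls depends on how libraries are scaled. With TMM 55.9% of the calls were higher, without TMM 78.7%, and on the authors' TPM 97.0%, as the median of all genes moved by 0.16 and 0.49 log2 units. With mitochondrial genes left out of the counts the share was 46.3%. Directions of small changes are therefore relative to the median gene.

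**Figure D2:**
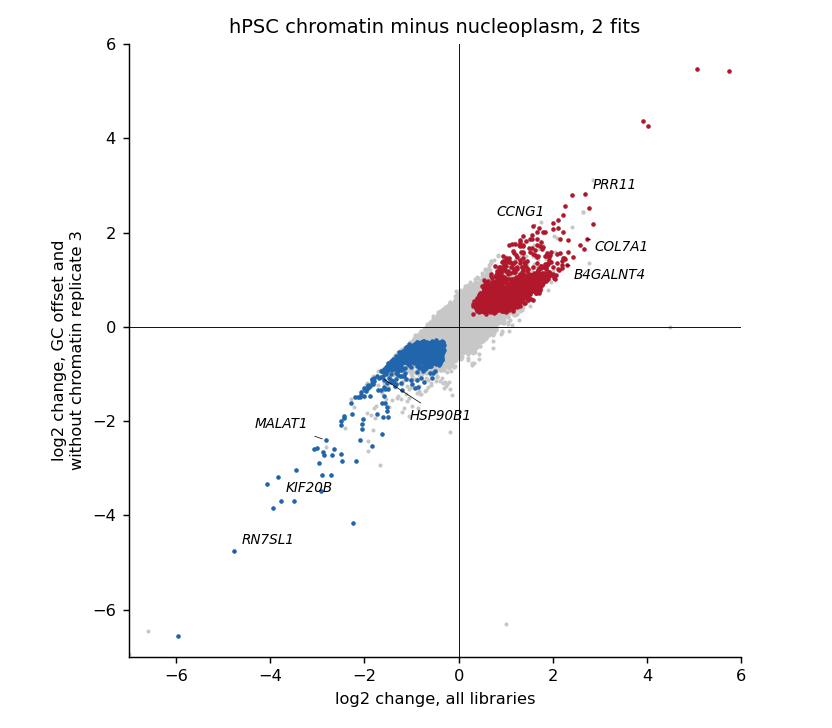
log2 change of 13731 genes with all libraries (x axis) against the change with the GC correction and without chromatin replicate 3 (y axis); 4 genes lie outside the axes. Each dot is a gene; red marks the 1137 genes called higher and blue the 766 called lower in both fits. PRR11 and CCNG1 keep or raise their change, while B4GALNT4 drops from 2.29 to 1.31.

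The RNAs most strongly released into the nucleoplasm were a mix of noncoding RNAs, mitochondrial RNAs and long AT-rich mRNAs. RN7SL1, the 7SL RNA of the signal recognition particle that guides ribosomes to the endoplasmic reticulum, had the largest fall among called genes with a mean of at least 10 CPM and no overlap between groups. It measured 35.4, 69.0 and 17.9 CPM in chromatin and 460.1, 1496 and 994 CPM in nucleoplasm. All chromatin libraries lay far below all nucleoplasm libraries, and the nucleoplasm libraries themselves spread widely. Its log2 change was -4.76 ± 0.53 SE with adjusted p = 0.00015 with all libraries and -4.40 ± 0.51 SE with adjusted p = 3.1e-05 without chromatin replicate 3. In the nucleus libraries it was at 28.2, 36.0 and 47.9 CPM and in cytoplasm at 879.9, 1065 and 534 CPM, so the nucleoplasm was close to cytoplasm and the nucleus to chromatin. RN7SL1 has near-identical copies in the genome, so its count is uncertain.

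MALAT1, a long noncoding RNA of nuclear speckles, was also lower on chromatin. It measured 169, 150.3 and 96.2 CPM in chromatin against 912, 1100 and 616 CPM in nucleoplasm, with 75.5, 99.6 and 76.1 in nucleus and 239, 278 and 226 in cytoplasm. The groups did not overlap, which the choice of the largest falls required, and the nucleus libraries were the lowest of the 4 fractions. The log2 change was -2.82 ± 0.25 SE with adjusted p = 5.5e-05, and -2.61 ± 0.23 SE with adjusted p = 5.0e-06 without chromatin replicate 3. NEAT1, the scaffold RNA of paraspeckles, was low but moved alike, at 1.09, 1.18 and 2.29 CPM in chromatin and 10.2, 11.3 and 8.81 in nucleoplasm, a log2 change of -2.90 ± 0.31 SE with adjusted p = 0.00014 and of -3.30 ± 0.31 SE with adjusted p = 6.7e-06 without chromatin replicate 3. Both RNAs are usually used as nuclear markers. Among 9 nuclear control RNAs 1 was higher and 3 were lower in chromatin (2 and 4 without chromatin replicate 3). Among 9 cytoplasmic control mRNAs 0 were higher and 1 was lower, with and without that library. Of all genes 17.2% were higher and 13.6% lower, and 14.0% and 11.2% without chromatin replicate 3. EEF1A1, which encodes a translation elongation factor, stood at 12730, 12860 and 12490 CPM and 12660, 11150 and 11960 CPM (-0.07 ± 0.12 SE with adjusted p = 0.69), and GAPDH (-0.29 ± 0.15 SE with adjusted p = 0.15) and ACTB (-0.21 ± 0.14 SE with adjusted p = 0.29) also missed the threshold; on the TPM scale these 3 changes were above 0, and that of EEF1A1 was also above 0 without TMM (0.090). When chromatin replicate 3 was left out they were -0.05, -0.26 and -0.18, and none was called.

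Mitochondrially encoded RNAs, made from the mitochondrial genome for the respiratory chain and the mitochondrial ribosome, were lower in chromatin throughout. All 17 tested were called lower, against 13.6% of all genes, with log2 changes from -2.99 to -1.07 and a median of -1.40. When chromatin replicate 3 was left out, all 17 were again lower, with a median of -1.30, and with the GC correction added 16 of 17. MT-CO1, a catalytic subunit of cytochrome c oxidase, measured 16950, 14380 and 14720 CPM in chromatin and 30110, 30880 and 34020 CPM in nucleoplasm. The groups were well apart, at a log2 change of -1.21 ± 0.19 SE with adjusted p = 0.00078 and of -1.17 ± 0.23 SE with adjusted p = 0.0018 without chromatin replicate 3. MT-RNR2, the large mitochondrial ribosomal RNA, measured 7343, 6044 and 4162 CPM and 17150, 17570 and 16780 CPM (log2 change -1.71 ± 0.21 SE with adjusted p = 0.00023 and -1.51 ± 0.20 SE with adjusted p = 0.00011), with chromatin replicate 3 lowest. The short mRNA of MT-ATP8, an ATP synthase subunit, changed by -2.99 ± 0.66 SE with adjusted p = 0.0049, but its nucleoplasm values of 31.4, 186 and 26.8 CPM were uneven, with replicate 2 far above the others. MT-ND3, of complex I, showed the same uneven replicate at 759, 1880 and 621 CPM against 372, 391 and 224 CPM in chromatin (log2 change -1.89 ± 0.44 SE with adjusted p = 0.0069). Without chromatin replicate 3 these changes were -2.76 and -1.67. The mitochondrial share of all counts was 5.07% ± 0.66 in chromatin, 11.0% ± 0.51 in nucleoplasm, 13.9% ± 1.26 in nucleus and 0.51% ± 0.11 in cytoplasm (SD, n = 3). The exact permutation test of chromatin against nucleoplasm gave p = 0.1, the smallest that 3 against 3 libraries allow. In this share chromatin replicate 3, at 4.51%, lay with the other chromatin libraries and not with the nucleus libraries, which ranged from 13.1% to 15.3%.

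Replication-dependent histone mRNAs, which end in a stem-loop in place of a poly(A) tail, were few in these libraries and lower on chromatin. Of 26 tested, 14 were called lower and 0 higher (13.6% and 17.2% of all genes were), with a median of -1.03. Without TMM 8 were lower and 0 higher, and on the TPM scale 5 of 21 were lower and 1 higher, with a median of -0.30. When chromatin replicate 3 was left out, 10 were lower and 0 higher, with a median of -1.03. H3C15 measured 0.513, 0.147 and 0.0790 CPM in chromatin and 6.30, 0.915 and 2.76 CPM in nucleoplasm (log2 change -3.77 ± 0.76 SE with adjusted p = 0.003, and -3.38 ± 0.81 SE with adjusted p = 0.0068 without chromatin replicate 3). H4C2 was at 0.0641, 0.0735 and 0 CPM and 0.691, 0.686 and 0.299 CPM (log2 change -3.44 ± 0.88 SE with adjusted p = 0.011, and -2.99 ± 0.95 SE with adjusted p = 0.032). Neither pair of groups overlapped, but both genes rest on few counts in chromatin. Histone genes are near-identical copies, so reads may be shared between them. Only 13 of these genes could be tested in the other cell types, where 3 were lower in ectoderm (25.5% of all genes were) and 1 in endoderm (33.7%).

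Long mRNAs of cell division and of nuclear architecture made up most of the other large falls. KIF20B, a kinesin of late mitosis, measured 5.38, 4.48 and 1.34 CPM in chromatin and 51.8, 46.4 and 46.4 CPM in nucleoplasm, a log2 change of -3.83 ± 0.35 SE with adjusted p = 5.8e-05 and of -3.43 ± 0.23 SE with adjusted p = 1.2e-06 without chromatin replicate 3. CENPE, a kinetochore motor, measured 5.25, 6.25 and 2.77 CPM and 22.4, 26.4 and 20.7 CPM (log2 change -2.44 ± 0.26 SE with adjusted p = 0.00014 and -2.17 ± 0.21 SE with adjusted p = 8.4e-06). In both genes every chromatin library was below every nucleoplasm library, which their choice required. Chromatin replicate 3 was the lowest chromatin library in both. In the nucleus libraries KIF20B measured 2.3, 2.3 and 2.2 CPM and CENPE 2.8, 2.7 and 1.5 CPM, below chromatin replicates 1 and 2. CENPF, a further kinetochore protein, was at 149.9, 125 and 23.7 CPM and 415, 374 and 331 CPM, and at 65.6, 60.9 and 48.6 CPM in nucleus. Its log2 change of -2.06 ± 0.43 SE with adjusted p = 0.0038 became -1.59 ± 0.15 SE with adjusted p = 6.6e-06 without chromatin replicate 3, in which it was far lower than in the other chromatin libraries. SMC3, a ring subunit of cohesin, was at 62.9, 62.3 and 14.9 CPM and 196, 176 and 179.9 CPM (log2 change -2.13 ± 0.37 SE with adjusted p = 0.0011 and -1.71 ± 0.14 SE with adjusted p = 3.8e-06).

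TPR, which builds the basket on the inner side of the nuclear pore, fell in the same way, from 232, 217 and 197 CPM in nucleoplasm to 81.3, 69.9 and 19.4 CPM in chromatin (log2 change -2.08 ± 0.36 SE with adjusted p = 0.0012 and -1.66 ± 0.16 SE with adjusted p = 7.3e-06). GOLGA4, a coiled-coil protein of the Golgi, changed by -2.29 ± 0.41 SE with adjusted p = 0.0014 and by -1.84 ± 0.19 SE with adjusted p = 1.4e-05 without chromatin replicate 3. NUCB2, a calcium-binding protein, changed by -2.44 ± 0.25 SE with adjusted p = 0.00013 and -2.13 ± 0.16 SE with adjusted p = 2.9e-06. The falls of these genes were smaller, yet still called, after the GC correction without that library, at -3.20 for KIF20B, -1.93 for CENPE, -1.39 for CENPF, -1.48 for SMC3 and -1.45 for TPR. KIF20B, CENPE, GOLGA4 and ASPM were counted only through assembled isoforms that carry no Ensembl transcript, so part of each gene's RNA may lie outside these counts. Of 53 mitosis genes tested, 22 were lower and 3 higher (without chromatin replicate 3, 21 and 1, and with the GC correction added, 11 and 2), with a median of -0.34; of all genes 13.6% were lower and 17.2% higher. On the TPM scale 20 of 52 were higher and 8 lower, with a median of 0.16. Of all genes on that scale 7231 of 13203 were higher and 226 lower, with a median of 0.49. Relative to the median of all genes the list lay at -0.33 on both scales. The spindle pole gene ASPM changed by -2.01 ± 0.42 SE with adjusted p = 0.0037, and by -1.54 ± 0.15 SE with adjusted p = 6.7e-06 without chromatin replicate 3. TOP2A, the topoisomerase of mitotic chromosomes and the most abundant gene of the list, measured 251, 229.9 and 64.5 CPM and 353, 303 and 328 CPM (log2 change -1.01 ± 0.34 SE with adjusted p = 0.039, and -0.60 ± 0.15 SE with adjusted p = 0.0076 without chromatin replicate 3). The call of TOP2A was lost without any 1 of the nucleoplasm libraries, at adjusted p = 0.071, 0.070 and 0.087 without replicates 1, 2 and 3. Of 32 nuclear pore genes 11 were lower and 1 higher, and 7 and 1 without chromatin replicate 3. On the TPM scale 11 were higher and 3 lower, with a median of 0.28, also below that of all genes.

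**Figure D3:**
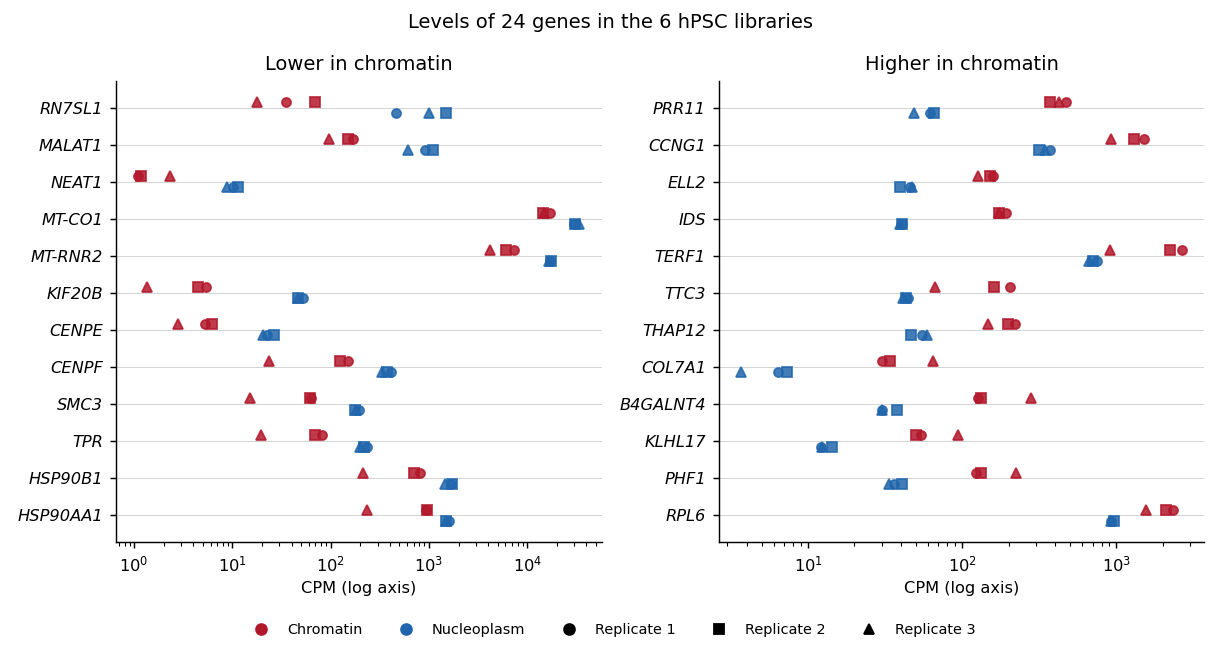
CPM of 24 genes in the 6 hPSC libraries on a log axis, at left 12 genes lower and at right 12 genes higher in chromatin. Red points are chromatin and blue points nucleoplasm; the shape of a point gives the replicate. In every gene shown the chromatin and nucleoplasm points do not overlap, which the choice of many of these genes required. The triangles of chromatin replicate 3 often lie away from the other chromatin points.

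mRNAs for protein folding were lower on chromatin as families. Of 28 genes for folding and translocation at the endoplasmic reticulum (ER), 18 were called lower and 0 higher, against 13.6% and 17.2% of all genes, with a median of -0.62. Without chromatin replicate 3, 20 were lower and 0 higher (median -0.56), and with the GC correction added 22 were lower and 1 higher (median -0.51). On the TPM scale, where the median of all genes was 0.49, the list's median was 0.01 and 6 were lower and 0 higher, so its direction is relative to other genes. HSP90B1, the ER member of the HSP90 chaperones, measured 816, 702 and 214 CPM in chromatin and 1693, 1707 and 1470 CPM in nucleoplasm. The groups were apart and chromatin replicate 3 was lowest, at a log2 change of -1.65 ± 0.33 SE with adjusted p = 0.0031 with it and -1.25 ± 0.14 SE with adjusted p = 3.1e-05 without, and -1.07 with the GC correction added. SEC62, of the post-translational translocon, was at 79.3, 59.5 and 15.9 CPM and 148, 142 and 132 CPM (log2 change -1.60 ± 0.37 SE with adjusted p = 0.0065 and -1.16 ± 0.14 SE with adjusted p = 5.0e-05). LMAN1, a cargo receptor between ER and Golgi, was at 153, 131 and 41.8 CPM and 245, 244 and 251 CPM (log2 change -1.34 ± 0.32 SE with adjusted p = 0.0078 and -0.95 ± 0.13 SE with adjusted p = 0.00013). In cytoplasm HSP90B1 measured 174, 206 and 219 CPM and LMAN1 25.2, 33.3 and 40.7 CPM, below chromatin replicates 1 and 2 and near chromatin replicate 3. In a fit of the 6 libraries alone the calls of SEC62 (adjusted p = 0.058) and LMAN1 (0.061) were lost, as were those of HSP90AA1 (0.090), PSMA3 (0.095), L1TD1 (0.074) and TOP2A (0.14), which are described above or below.

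Chaperones of the cytosol moved alike. Of 21 genes of the CCT chaperonin and the heat shock family 16 were lower and 0 higher (median -0.61), and without chromatin replicate 3, 12 and 0 (median -0.43), and with the GC correction added 11 and 0 (median -0.37). HSP90AA1, the inducible cytosolic HSP90, measured 940.5, 945 and 234 CPM and 1605, 1482 and 1498 CPM, and its log2 change was -1.27 ± 0.37 SE with adjusted p = 0.019 with and -0.85 ± 0.17 SE with adjusted p = 0.0021 without chromatin replicate 3. With the GC correction added it was -0.68. CCT8, a chaperonin subunit, was at 222, 238 and 119.9 CPM and 376, 328 and 387 CPM (log2 change -1.07 ± 0.20 SE with adjusted p = 0.0018 and -0.82 ± 0.12 SE with adjusted p = 0.00026, and -0.64 with the GC correction added). For HSP90AB1, the constitutive HSP90 and the most abundant of the list, the change was small at -0.42 ± 0.12 SE with adjusted p = 0.017 and its call was lost without chromatin replicate 3 (-0.38 ± 0.14 SE with adjusted p = 0.061) and without nucleoplasm replicate 3 (-0.42, adjusted p = 0.057). Proteasome subunits gave 19 lower and 0 higher of 37 (median -0.35), and 15 and 0 without chromatin replicate 3, against 13.6% and 17.2% of all genes with all libraries. With the GC correction added 10 were lower and 0 higher. PSMA3, of the proteasome core, changed by -1.27 ± 0.38 SE with adjusted p = 0.024, and by -0.84 ± 0.19 SE with adjusted p = 0.0054 without chromatin replicate 3, and its call was lost without nucleoplasm replicate 2 (adjusted p = 0.052) or 3 (adjusted p = 0.057). Of 22 genes for hnRNP proteins, which coat new transcripts, 13 were lower and 1 higher, which became 7 and 0 without chromatin replicate 3 and 5 and 0 with the GC correction added. HNRNPA1, the most abundant, changed by -0.52 ± 0.14 SE with adjusted p = 0.017, and its call was lost without that library (-0.43 ± 0.16 SE with adjusted p = 0.064) and without nucleoplasm replicate 2 (adjusted p = 0.052). On the TPM scale the split of calls turned for the proteasome list, with 9 higher and 1 lower (median 0.23), and was 3 and 2 for the hnRNP list (median 0.11) and 2 and 1 for the chaperones (median -0.04). These medians lay below that of all genes, 0.49.

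Cytosolic ribosomal protein mRNAs were called less often than the 13.6% lower and 17.2% higher of all genes, with 5 lower and 3 higher of 85 and a median of -0.25 (2 and 3 without chromatin replicate 3). On the TPM scale 32 were higher and 0 lower, with a median of 0.38. Of all genes on that scale 7231 of 13203 were higher and 226 lower, with a median of 0.49. RPL4 and RPL6, of the large subunit, went against their family. RPL6 measured 2316, 2094 and 1557 CPM in chromatin and 921, 969 and 923 CPM in nucleoplasm, a log2 change of 0.92 ± 0.19 SE with adjusted p = 0.0032 and of 1.08 ± 0.18 SE with adjusted p = 0.00059 without chromatin replicate 3. RPL4, the most abundant member, was at 3124, 2976 and 3439 CPM and 1840, 1680 and 1832 CPM (log2 change 0.67 ± 0.12 SE with adjusted p = 0.0018 and 0.62 ± 0.14 SE with adjusted p = 0.0048). Neither gene's groups overlapped. Both genes were counted only through listed transcripts, and both have processed copies elsewhere in the genome, so their counts are uncertain.

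On the other side, a set of 12 genes was taken from those called in all 4 fits, as the genes with the largest rises in the fit with the GC correction and without chromatin replicate 3; it was chosen after its values were seen. PRR11, a gene linked to cell cycle progression, had the largest rise in that fit (2.82), while COL7A1, also of the set, was above it with all libraries. It measured 467, 373 and 424 CPM in chromatin, 107, 126 and 105 in nucleus, 61.8, 65.6 and 48.5 in nucleoplasm and 13.1, 26.2 and 30.4 in cytoplasm. The 4 fractions stood in that order with no overlap between neighbours. The log2 change of chromatin against nucleoplasm was 2.68 ± 0.21 SE with adjusted p = 2.8e-05, and 2.69 ± 0.21 SE with adjusted p = 2.9e-06 without chromatin replicate 3. CCNG1, which encodes cyclin G1, a target of p53, measured 1506, 1293 and 918 CPM and 371, 312 and 345 CPM (log2 change 1.70 ± 0.16 SE with adjusted p = 6.4e-05 and 1.88 ± 0.12 SE with adjusted p = 1.2e-06). IDS, a lysosomal sulfatase, was at 192, 173 and 173 CPM and 40.4, 40.8 and 39.4 CPM (log2 change 2.00 ± 0.12 SE with adjusted p = 3.2e-06 and 2.03 ± 0.12 SE with adjusted p = 5.1e-07). For these genes the chromatin libraries were all more than 2-fold above the nucleoplasm libraries.

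TERF1, which encodes a telomere-binding protein and is abundant in pluripotent cells, was the most abundant of the set. It measured 2673, 2221 and 909 CPM in chromatin and 744, 709 and 663 CPM in nucleoplasm, with chromatin replicate 3 far nearer to nucleoplasm than the others. Its log2 change was 1.30 ± 0.28 SE with adjusted p = 0.004 with that library and 1.64 ± 0.13 SE with adjusted p = 3.6e-06 without it. TTC3, a ubiquitin ligase, showed the same gap within chromatin, at 204, 161 and 66.3 CPM against 44.6, 43.4 and 41.5 CPM (log2 change 1.58 ± 0.31 SE with adjusted p = 0.0024 and 1.93 ± 0.17 SE with adjusted p = 4.7e-06), and was counted only through unlisted isoforms. JAKMIP2, at 46.4, 40.1 and 13.8 CPM and 11.2, 12.3 and 11.3 CPM, also had its lowest chromatin value in replicate 3 (log2 change 1.37 ± 0.33 SE with adjusted p = 0.0072 and 1.75 ± 0.15 SE with adjusted p = 5.0e-06). ELL2, an elongation factor of RNA polymerase II, changed by 1.55 ± 0.17 SE with adjusted p = 0.00014 and THAP12 by 1.66 ± 0.17 SE with adjusted p = 0.00014; without chromatin replicate 3 these were 1.65 and 1.81. The noncoding RNAs of the set were LINC01013, at 389.7, 322 and 298 CPM against 87.9, 96.0 and 75.7 CPM, and WAC-AS1, at 75.9, 60.4 and 63.8 CPM against 15.9, 15.1 and 10.7 CPM. Their log2 changes were 1.80 ± 0.20 SE with adjusted p = 0.00015 and 2.10 ± 0.20 SE with adjusted p = 6.1e-05, and 1.89 and 2.15 without chromatin replicate 3. WAC-AS1 overlaps or abuts a gene on the other strand, and reads of such partners cannot be told apart without strand.

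The 12 largest rises with all libraries were mostly GC-rich genes, with a median transcript GC content of 65.2% and PRR11 as the lowest at 45.3%. All 12 were called in all 4 fits, but 8 of them were counted only through assembled isoforms with no Ensembl transcript. COL7A1, a collagen of the skin's anchoring fibrils, measured 30.2, 34.0 and 64.5 CPM in chromatin and 6.39, 7.32 and 3.66 CPM in nucleoplasm (log2 change 2.73 ± 0.32 SE with adjusted p = 0.00018 and 2.32 ± 0.24 SE with adjusted p = 1.5e-05). B4GALNT4, a glycosyltransferase, measured 127, 132 and 279 CPM and 30.2, 37.6 and 30.3 CPM (log2 change 2.29 ± 0.26 SE with adjusted p = 0.00015 and 1.83 ± 0.13 SE with adjusted p = 2.2e-06). KLHL17, a kelch protein of the actin cytoskeleton, measured 53.7, 50.3 and 94.3 CPM and 12.1, 14.3 and 12.2 CPM (log2 change 2.19 ± 0.23 SE with adjusted p = 0.00014 and 1.86 ± 0.16 SE with adjusted p = 4.0e-06). Chromatin replicate 3 was the highest library in each of these genes, as in MAMDC4 at 44.0, 45.7 and 103 CPM and in RHPN1 at 114, 116 and 226 CPM. MAMDC4 changed by 2.66 ± 0.35 SE with adjusted p = 0.00034 and RHPN1 by 2.43 ± 0.24 SE with adjusted p = 9.5e-05, and by 2.14 and 2.03 without chromatin replicate 3. With the GC correction and without that library the changes were 1.86 for COL7A1, 1.31 for B4GALNT4, 1.40 for KLHL17, 1.64 for MAMDC4 and 1.47 for RHPN1.

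Some groups of noncoding RNA genes lay above the median gene. Of 125 intergenic RNAs with LINC names 23 were higher and 1 lower (median 0.30), and of 227 RNAs named as antisense 45 were higher and 5 lower (median 0.31). Of 119 divergent RNAs, named for a neighbouring promoter, 11 were higher and 0 lower (median 0.30). Of all genes 17.2% were higher and 13.6% lower, so the higher calls of these lists were near or below the background while their medians lay above that of all genes, -0.01. When chromatin replicate 3 was left out, the counts were 16 and 1, 38 and 7, and 8 and 0. GENCODE's miscellaneous RNA genes, RN7SL1 among them, lay lower, with 2 higher and 5 lower of 19 (median -0.69, and -0.62 without chromatin replicate 3), and pluripotency lncRNAs had a median of -0.01 with 3 higher and 0 lower of 13 (2 and 0 without chromatin replicate 3). Of 16 microRNA host genes 4 were higher and 0 lower, and 4 and 1 of 17 without that library. MIR124-1HG, a host of miR-124, was at 121, 126 and 201 CPM and 47.9, 61.4 and 52.8 CPM (log2 change 1.30 ± 0.24 SE with adjusted p = 0.0017 and 1.04 ± 0.20 SE with adjusted p = 0.0019). MIR302CHG, which hosts the miR-302 cluster of pluripotent cells and is the most abundant of the list, was at 705, 747 and 924 CPM and 286, 481 and 328 CPM. All its chromatin values lay above its nucleoplasm values, yet the change of 0.95 ± 0.36 SE with adjusted p = 0.057 missed the threshold. It passed without nucleoplasm replicate 2 (1.21, adjusted p = 0.048), without TMM (1.12, 0.016) and with upper-quartile factors (0.94, 0.047). It also passed on the TPM scale (1.36, 0.0015), in the 6 libraries alone (0.98, 0.017) and with the GC correction of all libraries (1.83, 0.0081). Its call thus depends on the fit.

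Genes typed as microRNA or snoRNA by GENCODE gave 10 higher and 1 lower of 33 and 6 higher and 3 lower of 19, against 17.2% and 13.6% of all genes (without chromatin replicate 3, 9 and 2 of 35 and 7 and 3 of 20). With all libraries, 33 of the 33 and 18 of the 19 had no listed transcript and were counted only through assembled transcripts. Their counts therefore need not be of the small RNAs themselves, which was not tested. SNORD116-24 and SNORD116-6, of the imprinted snoRNA cluster on chromosome 15, moved in opposite directions through such transcripts. SNORD116-24 was at 7.50, 11.7 and 5.53 CPM in chromatin and 0.691, 0 and 0 in nucleoplasm; its call (5.05 ± 0.86 SE with adjusted p = 0.0016) was lost with DESeq2 (adjusted p = 0.055), and its size rests on the near absence of nucleoplasm counts. Without chromatin replicate 3 its change was 5.28 ± 0.84 SE with adjusted p = 0.00063. SNORD116-6 was at 2.75, 2.79 and 3.79 CPM and 18.7, 20.7 and 12.5 CPM (log2 change -2.64 ± 0.24 SE with adjusted p = 5.8e-05 and -2.79 ± 0.27 SE with adjusted p = 6.7e-06). SNHG14, the long host RNA of that cluster, was at 2943, 2583 and 1683 CPM and 1702, 1707 and 1522 CPM. Its change of 0.39 ± 0.18 SE with adjusted p = 0.12 missed the threshold with all libraries and passed it without chromatin replicate 3 (0.60 ± 0.14 SE with adjusted p = 0.007).

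Families of near-identical genes and pseudogenes also lay high. Of 62 genes of duplicated families 21 were higher and 6 lower (median 0.38), and of 48 unprocessed pseudogenes 19 were higher and 2 lower (median 0.57), beside 17.2% and 13.6% of all genes. When chromatin replicate 3 was left out, the counts were 17 and 6 of 63, and 16 and 2 of 50 (medians 0.24 and 0.59). Reads of such genes can be shared between copies, so single members are uncertain. Processed pseudogenes, which are intronless copies of mRNAs, gave 8 higher and 8 lower of 101 with a median of -0.18 (3 and 9 of 105 without chromatin replicate 3).

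Among regulators, Polycomb genes gave 10 higher and 4 lower of 27 with a median of 0.28, beside 17.2% and 13.6% of all genes. Without chromatin replicate 3 there were 6 and 5 (median 0.16), and with the GC correction added 6 and 0 (median 0.03). PHF1, a partner of the histone H3 lysine 27 methyltransferase complex, measured 123, 133 and 222 CPM in chromatin and 36.1, 40.5 and 33.6 CPM in nucleoplasm (log2 change 1.95 ± 0.21 SE with adjusted p = 0.00014 and 1.64 ± 0.13 SE with adjusted p = 3.6e-06). PCGF3, a ring finger subunit of the ubiquitin ligase complex, changed by 1.08 ± 0.17 SE with adjusted p = 0.00075 and 0.82 ± 0.11 SE with adjusted p = 0.00012. PHC1, the most abundant of the list, was at 1734, 1810 and 2698 CPM and 1076, 1149 and 1215 CPM (log2 change 0.70 ± 0.15 SE with adjusted p = 0.0052 and 0.47 ± 0.12 SE with adjusted p = 0.011). CLK2, a kinase of splicing factors whose own transcript is known for detained introns, was at 142, 149 and 251 CPM and 71.8, 70.7 and 63.1 CPM (log2 change 1.24 ± 0.20 SE with adjusted p = 0.00077 and 0.93 ± 0.13 SE with adjusted p = 0.00015). In each of these genes the groups were apart and chromatin replicate 3 was the highest library.

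Pluripotency genes gave 5 higher and 4 lower of 24 (4 and 3 of 25 without chromatin replicate 3), near the 17.2% and 13.6% of all genes. L1TD1, an RNA-binding protein of pluripotent cells, measured 545, 485 and 126 CPM in chromatin and 1024, 916 and 815 CPM in nucleoplasm (log2 change -1.41 ± 0.36 SE with adjusted p = 0.011 and -0.99 ± 0.14 SE with adjusted p = 0.00013, and -0.78 with the GC correction added). GDF3, a TGF-β family ligand, was at 7.63, 7.06 and 8.14 CPM and 15.7, 13.2 and 15.4 CPM (log2 change -1.12 ± 0.16 SE with adjusted p = 0.00039 and -1.16 ± 0.17 SE with adjusted p = 0.00021). PODXL, a surface glycoprotein and the most abundant of the list, changed by -0.50 ± 0.14 SE with adjusted p = 0.019 and -0.52 ± 0.17 SE with adjusted p = 0.034. Its call was lost without nucleoplasm replicate 2 (adjusted p = 0.056) or 3 (0.059) or chromatin replicate 2 (0.064). ZSCAN10, a transcription factor, was higher at 0.89 ± 0.15 SE with adjusted p = 0.00096 and 0.72 ± 0.13 SE with adjusted p = 0.00087, but not called with the GC correction (0.24, adjusted p = 0.10). Larger families, beside 17.2% higher and 13.6% lower of all genes, gave 52 higher and 26 lower of 399 zinc finger genes, 23 and 33 of 160 SLC transporters and 12 and 13 of 52 collagen, laminin and matrix genes. When chromatin replicate 3 was left out, these were 44 and 21 of 401, 17 and 32 of 162, and 9 and 13 of 52. Their split depends on the scaling, with 84 and 10, 32 and 15, and 16 and 7 without TMM, and 200 and 1 of 380, 71 and 2 of 156, and 26 and 1 of 48 on the TPM scale.

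**Figure D4:**
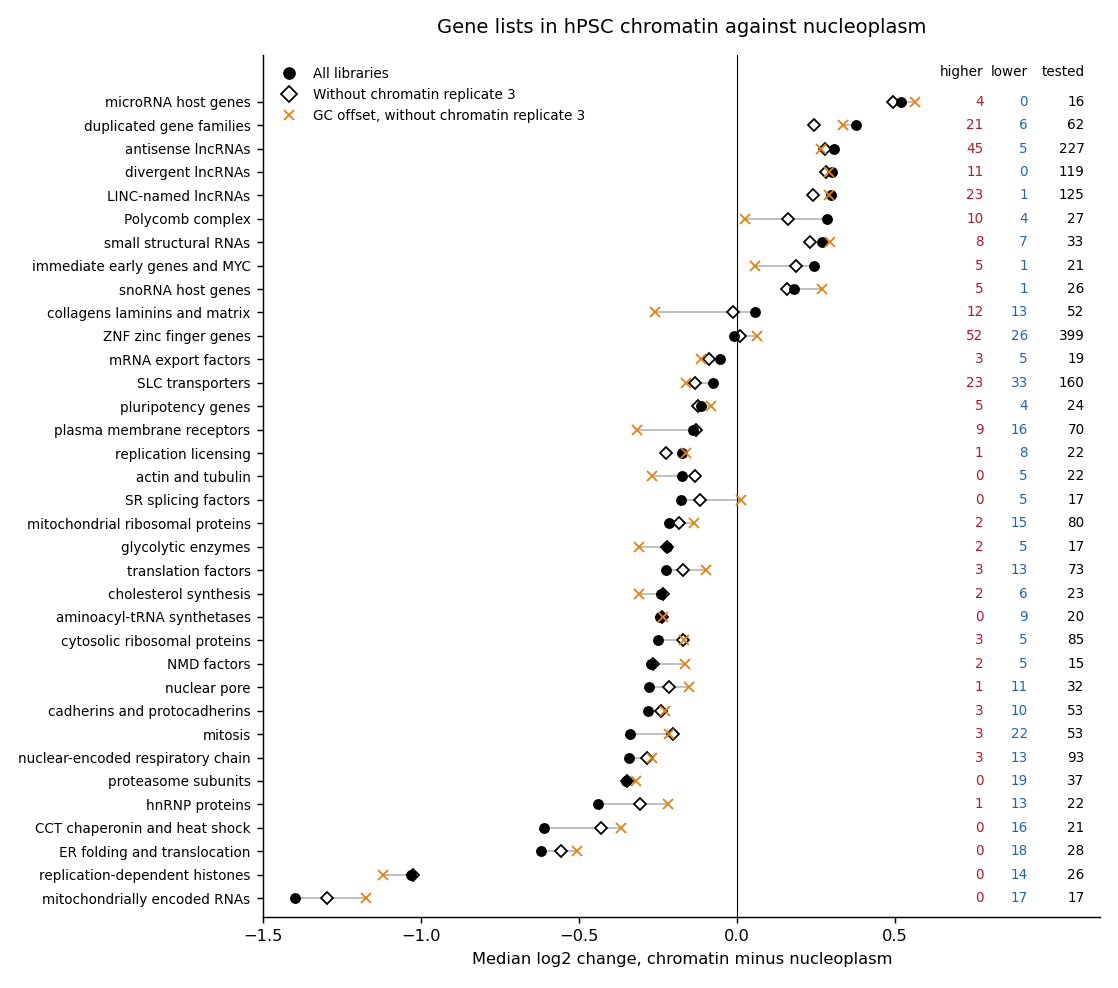
Median log2 change of 35 gene lists with at least 15 tested members. Filled circles use all libraries, open diamonds leave out chromatin replicate 3 and crosses add the GC correction; the numbers at right count members called higher, called lower and tested with all libraries. Mitochondrially encoded RNAs are lowest (-1.40 with all libraries) and microRNA host genes highest (0.52).

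Base composition sorted the whole table. From the lowest to the highest of 5 groups of GC content the median log2 change was -0.42, -0.21, -0.04, 0.18 and 0.42, and without chromatin replicate 3 it was -0.22, -0.14, -0.06, 0.11 and 0.32. In the lowest group 3.09% of genes were called higher and 29.6% lower, and in the highest 42.7% and 1.31%. The median GC content was 59.1% for genes called higher, 43.0% for genes called lower and 50.0% for all genes tested. Among genes called in all 4 fits it was 56.2% and 44.9%. These genes also had to be called in the fits without the GC correction, so the choice favours such a gap. With the correction, which is built to level this trend, the medians of the 5 groups were 0.03, 0.02, -0.01, -0.01 and -0.055. The exact permutation p for the GC gap of chromatin against nucleoplasm libraries was 0.1, the smallest possible. Genes with more transcripts in the table were more often called higher, with 29.6% of the top group called higher and 8.26% lower. The lowest group and the next both held only genes with 1 transcript, so the split between them is arbitrary. They had 9.94% and 11.2% called higher and 20.9% and 13.7% lower. From the shortest to the longest group by transcript length the median went from -0.04 to -0.03, and by the length of the locus from 0.14 to -0.11 (without chromatin replicate 3, -0.03 to -0.01 and 0.10 to -0.06). With the GC correction it went from -0.16 to 0.12 by transcript length, rising from each group to the next, and from -0.04 to 0.02 by locus length. With chromatin replicate 3 also left out, it went from -0.13 to 0.07 by transcript length. The fall by locus length thus did not hold under the correction. A rise by annotated transcript length was seen in these hPSC fits only with it. By coding length the median rose without the correction too, from -0.15 to 0.03 (-0.09 to 0.03 without chromatin replicate 3). By the effective length of the most abundant counted transcript, implied by count and TPM, it went from -0.12 to 0.03. There the middle group was highest, at 0.05.

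The kinds of transcript differed between the fractions as well. Transcripts annotated as retaining an intron took 1.12% ± 0.26 of counts in chromatin and 0.56% ± 0.04 in nucleoplasm (SD, n = 3). In the single libraries the shares were 0.96%, 0.98% and 1.42% against 0.55%, 0.61% and 0.52%, with no overlap. New isoforms of Ensembl genes took 17.9% ± 1.86 and 13.9% ± 0.57 of counts; on the TPM scale this difference turned round (-1.55 percentage points). Transcripts of no Ensembl gene took 1.23% ± 0.14 in chromatin and 6.30% ± 1.53 in nucleoplasm. The exact permutation p was 0.1 for each, the smallest possible. Without chromatin replicate 3 the difference in percentage points was -5.67 for mitochondrial RNAs, 0.41 for retained introns, 2.87 for new isoforms and -5.15 for transcripts of no Ensembl gene. Genes with no listed transcript, 2362 of those tested (16.9%), were called higher in 22.4% and lower in 5.97% of cases, against 16.1% and 15.1% for genes with a listed one, in the fit of all libraries.

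The same comparison was made in ectoderm and endoderm cells, each on its own transcript assembly, to find where hPSC differ. In a fit of 11280 genes present in all 3 tables, 43.4% were called in hPSC (22.1% higher and 21.3% lower), 51.0% in ectoderm (25.5% in each direction) and 64.9% in endoderm (31.2% higher and 33.7% lower). Of the 2494 genes higher in hPSC chromatin, 1648 (66.1%) were also higher in ectoderm, which are 57.3% of the ectoderm calls, and 2001 (80.2%) in endoderm, which are 56.8% of the endoderm calls. Of the 2406 lower in hPSC, 1565 (65.0%, and 54.3% of the ectoderm calls) were lower in ectoderm and 1816 (75.5%, and 47.7% of the endoderm calls) in endoderm. The difference itself was called in 1301 genes for ectoderm minus hPSC (11.5%), 638 higher (5.66%) and 663 lower (5.88%), and in 4190 for endoderm minus hPSC (37.1%), 1754 higher (15.5%) and 2436 lower (21.6%). Without hPSC chromatin replicate 3 these counts were 2295 and 5515. The cell type and its assembly cannot be told apart in these tests, and both differences share the hPSC libraries. The 42 differences flagged in a later section, a part of those called for genes named here, were also called without hPSC chromatin replicate 3.

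RN7SL1, which was chosen for its large fall in hPSC, showed the largest turn among the genes described here. In ectoderm it measured 45.9, 28.0 and 86.1 CPM in chromatin and 13.9, 30.5 and 15.7 CPM in nucleoplasm, and in endoderm 64.4, 40.1 and 28.96 CPM in chromatin and 2.89, 10.6 and 6.64 CPM in nucleoplasm. Its log2 change was -4.75 ± 0.57 in hPSC, 1.32 ± 0.53 in ectoderm (adjusted p = 0.045) and 2.22 ± 0.58 in endoderm (adjusted p = 0.0024). The chromatin levels of the 3 cell types overlapped, while the nucleoplasm of hPSC was far above that of the others. The difference was 6.07 ± 0.76 SE with adjusted p = 8.8e-05 for ectoderm and 6.97 ± 0.80 SE with adjusted p = 3.0e-06 for endoderm.

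Several genes kept on chromatin in all 4 hPSC fits were less so in the other cells. PRR11, CCNG1, IDS and TERF1 were chosen for large rises in hPSC, and the test uses the same hPSC libraries. The choice thus favours a smaller change in the other cells, and the p-values do not account for it. PRR11 was nearly level in ectoderm, at 85.8, 72.8 and 91.5 CPM in chromatin and 78.9, 75.7 and 74.0 CPM in nucleoplasm, and higher by 0.43 in endoderm. Its difference from hPSC was -2.70 ± 0.17 SE with adjusted p = 6.1e-08 in ectoderm and -2.27 ± 0.17 SE with adjusted p = 4.3e-08 in endoderm. CCNG1 was lower in ectoderm chromatin, at 239, 232 and 242 CPM against 379.8, 354 and 342 CPM, a difference from hPSC of -2.42 ± 0.20 SE with adjusted p = 9.8e-07, and of -1.02 ± 0.20 SE with adjusted p = 0.00064 in endoderm. The differences were -2.28 and -1.61 for IDS and -1.66 and -1.28 for TERF1, each called. RPL6 and RPL4 lost their hPSC direction in ectoderm, with differences of -1.55 ± 0.20 SE with adjusted p = 9.6e-05 and -1.20 ± 0.14 SE with adjusted p = 3.0e-05; in endoderm the differences were -0.90 and -0.71, whose calls were lost without TMM. COL7A1 (differences -0.77 ± 0.35 SE with adjusted p = 0.16 and 0.93 ± 0.37 SE with adjusted p = 0.053) was not shown to differ.

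The mitochondrially encoded RNAs and the ER folding list were lower in chromatin in all 3 cell types. The 15 mitochondrially encoded RNAs that could be tested were all lower in ectoderm (median -1.99) and in endoderm (median -3.62). MT-CO1 differed from hPSC by -0.79 ± 0.19 SE with adjusted p = 0.012 in ectoderm and -2.31 ± 0.19 SE with adjusted p = 9.5e-08 in endoderm. The ER folding list had 26 lower of 28 in ectoderm and 28 of 28 in endoderm, and HSP90B1 differed by -1.56 ± 0.40 SE with adjusted p = 0.0047 in endoderm but not detectably in ectoderm (-0.25 ± 0.39 SE with adjusted p = 0.74). MALAT1, also chosen for a large fall in hPSC, was released in each cell type. The release was smaller than in hPSC by 1.22 ± 0.32 SE with adjusted p = 0.019 in ectoderm and 1.37 ± 0.32 SE with adjusted p = 0.0024 in endoderm. The ectoderm call for MALAT1 was lost without hPSC nucleoplasm replicate 2 (adjusted p = 0.058) and without ectoderm chromatin replicate 2 (adjusted p = 0.060). Of 85 ribosomal protein mRNAs 81 were lower in ectoderm and 71 in endoderm in this fit, beside 25.5% and 33.7% of all genes, and the difference of the family from hPSC was not tested.

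**Figure D5:**
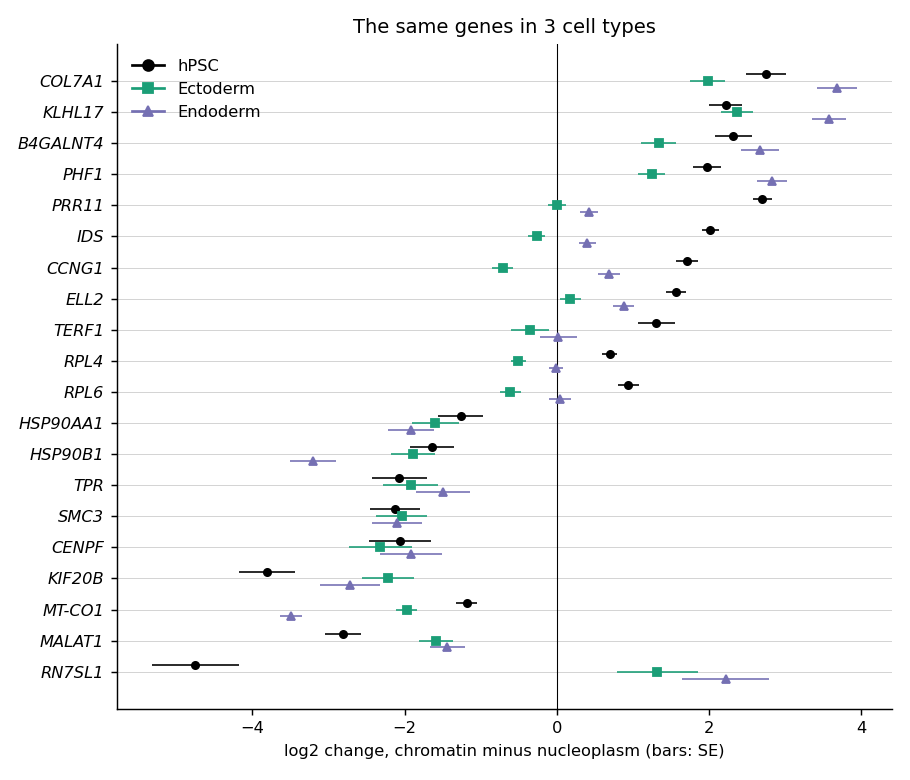
log2 change of chromatin against nucleoplasm for 20 genes in hPSC, ectoderm and endoderm, from 1 fit of 18 libraries; bars are SE. RN7SL1 lies at -4.75 in hPSC and above 0 in the other cells, and PRR11, IDS, CCNG1 and ELL2 lie furthest right in hPSC, while SMC3, CENPF and TPR fall in all 3.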

How the data were processed

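RNA-seq libraries of 4 fractions (nucleus, nucleoplasm, chromatin, cytoplasm) of H1 cells were used, 3 per fraction. The deposited tables hold counts and TPM per transcript of an assembly made for each cell type; the authors' processing notes name hg38, STAR and RSEM without versions, and how RSEM estimates became whole counts is not given in the sources used here. Strandedness is not given either. Counts were summed per Ensembl gene; transcripts of no Ensembl gene, 0.911% to 9.36% of counts per library, were left out, as was 1 ectoderm column. The 12 hPSC libraries, of 8329295 to 15798639 counts, were fitted together with edgeR 4.0.16 in R 4.3.3 (TMM factors, minimum count 10, quasi-likelihood test, Benjamini-Hochberg adjustment over all genes tested, two-sided), so the groups share 1 estimate of spread. SE is the log2 change divided by the root of F. Differences between cell types came from an interaction term over 18 libraries; mesoderm, with 1 nucleoplasm library, was not tested. Shares of counts were compared by two-sided exact permutation tests.

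Alternatives used DESeq2 1.42.0, limma 3.58.1 on log2(TPM + 1) with a mean TPM of at least 1, other scalings and filters, and fits without each library. The GC offset, a lowess curve (span 0.3) of each library on transcript GC content, was added after seeing the data. GENCODE release 29 gave annotation and sequences for 14655 of the 15115 genes (97.0%), and a GC value for 98.2% of genes tested. The GC value was that of a gene's most abundant listed transcript. Where a gene had no listed transcript, its longest GENCODE transcript was used, which may differ from the isoforms counted. The genes named were, in each direction, the 12 called genes with the largest change, a mean of at least 10 CPM, no overlap between groups and a symbol, and from each of 41 lists the up to 4 called members with the largest change and the most abundant member. The members and lists were chosen with earlier results of these data known. The scripts were tested on simulated data. Total counts limit precision for genes of few counts. Some items are not reported here.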

Additional observations from a re-analysis of the deposited data

Results flagged for a closer look

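The chromatin-nucleoplasm change of some genes differed between hPSC and another cell type by the test of the difference itself (edgeR's quasi-likelihood interaction term with Benjamini-Hochberg adjustment, 3 libraries per group). All values are differences of log2 changes. Many of these genes were chosen for large changes in the same hPSC libraries, which favours smaller changes in the other cells. Ectoderm minus hPSC was positive for RN7SL1 (6.07), KIF20B (1.59), MALAT1 (1.22) and NUCB2 (1.07). KIF20B, MALAT1 and NUCB2 were thus less depleted from chromatin in ectoderm, where RN7SL1 was higher in chromatin. The call of KIF20B was lost in 9 of the 12 fits that left out 1 library, and with a replicate block (adjusted p = 0.080). That of MALAT1 was lost without hPSC nucleoplasm replicate 2 (0.058) or ectoderm chromatin replicate 2 (0.060). It was negative for PRR11 (-2.70), CCNG1 (-2.42), IDS (-2.28), TTC3 (-1.70), TERF1 (-1.66), RPL6 (-1.55), ELL2 (-1.39) and RPL4 (-1.20), and for MT-CO1 (-0.79), EEF1A1 (-0.64), GAPDH (-0.63) and ACTB (-0.58).

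Endoderm minus hPSC was positive for RN7SL1 (6.97), MAMDC4 (1.40), MALAT1 (1.37), KLHL17 (1.36), CLK2 (0.95), MIR302CHG (0.92), PHF1 (0.85) and PHC1 (0.73). It was negative for MT-CO1 (-2.31), PRR11 (-2.27), NUCB2 (-1.65), IDS (-1.61), HSP90B1 (-1.56), MT-ND3 (-1.34), LMAN1 (-1.30), TERF1 (-1.28), MT-RNR2 (-1.26) and CCNG1 (-1.02). Smaller negative differences were those of EEF1A1 (-0.98), ACTB (-0.98), HSP90AB1 (-0.91), RPL6 (-0.90), GAPDH (-0.72), RPL4 (-0.71), ELL2 (-0.69) and PODXL (-0.69). The MIR302CHG call was lost with the GC offset (0.31, adjusted p = 0.58) and that of MAMDC4 without hPSC nucleoplasm replicate 2 (0.071). The MT-ND3 call was lost without TMM (0.079), without hPSC nucleoplasm replicate 1 (0.060) or 3 (0.052), and without endoderm nucleoplasm replicate 3 (0.059) or chromatin replicate 2 (0.052). Without TMM the calls of LMAN1 (0.055), ELL2 (0.23), GAPDH (0.065), PODXL (0.076), RPL4 (0.075) and RPL6 (0.050) were lost as well. NUCB2 differed in opposite directions in the 2 cell types. The cause of these differences was not tested.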

How the results depend on the processing

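The count of genes called in hPSC was 4295. It was 7457 on the authors' TPM with limma, 2627 with listed transcripts only and 2619 with the GC offset and without chromatin replicate 3. Of the 4295 genes 1206 had an absolute log2 change of at least 1, a cut made after the test against 0. With a minimum count of 50 the share of calls that were higher was 45.1%, against 55.9%. Leaving out 1 library at a time gave 2792 to 4494 calls, with the lowest counts without nucleoplasm replicate 3 and without nucleoplasm replicate 1 (2840). For ectoderm minus hPSC the range was 770 to 2295 around 1301 (783 without hPSC nucleoplasm replicate 1; 816, 851 and 808 without ectoderm nucleoplasm replicate 1, chromatin replicate 1 and chromatin replicate 2), and for endoderm minus hPSC 3690 to 5515 around 4190. For the latter 41.9% of calls were higher with TMM and 77.4% without. As shares of the authors' TPM, the mitochondrial difference was -9.89 percentage points and that of new isoforms reversed to -1.55. Changes that reversed on the TPM scale were ACTB (0.36), EEF1A1 (0.53), GAPDH (0.30), HNRNPA1 (0.051), HSP90AB1 (0.15) and PODXL (0.085); EEF1A1 also reversed without TMM (0.090) and with the GC offset without chromatin replicate 3 (0.013). The causes were not tested. With a replicate block 4310, 967 and 4050 genes were called in these 3 comparisons, and same-numbered libraries deviated with correlations of 0.12, -0.08 and 0.03, so the numbers were not taken as pairs.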
